A study of Mus musculus with 12 samples.

Results

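Expression of 10 genes for transporters of bile acids, phospholipids and sterols was followed in mouse liver, among 17097 genes measured. The members are 4 carriers that take bile acids and organic anions up from sinusoidal blood (Slc10a1, Slco1a1, Slco1a4 and Slco1b2), 5 pumps or pump subunits of the canalicular membrane that export into bile (Abcb11, Abcb4, Abcc2, Abcg5 and Abcg8), and Abcc3, an exporter of the basolateral membrane. Each gene was read from the probe set that is annotated to it alone and has the highest mean log2 value over the 12 arrays. All 10 were represented, and each chosen probe set lay above the brightest of 17 tag control probe sets on all 12 arrays. Liver RNA came from adult C57BL/6 mice, wildtype or Socs2-null, that either had no operation (0 h) or were studied 24 or 36 h after removal of 2/3 of the liver. Each of the 6 groups held 2 arrays. An array carried a pool of RNA from 3 animals, and n is therefore a number of pools. Unoperated mice stood for 0 h and there was no sham operation, so loss of liver and surgery cannot be told apart. The sources used here give neither the sex of the mice nor the time of day of harvest, nor how the Socs2 allele was made.

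Hepatocytes take bile acids from portal blood at their sinusoidal face and pump them into the canaliculus at the opposite face, and bile flow follows this transport. Phospholipid and cholesterol are exported beside them, by other pumps of the canalicular membrane. Many of these genes are controlled by nuclear receptors that bind bile acids, oxysterols or xenobiotics. The Socs2 protein dampens the growth hormone receptor, which signals through STAT5. In mouse liver Slco1a1 is known as a male-predominant gene and Slco1a4 as a female-predominant one.

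The label check came first. By its brightest probe set Socs2 ranged from 116 to 546 intensity units on the 6 wildtype arrays and from 23.1 to 29.5 on the 6 Socs2-null arrays, where it was under the brightest tag control of the same array each time. Of its other 3 probe sets, one read 60.5 to 223 on wildtype and 18.5 to 45.7 on Socs2-null arrays, 1 of which was above the brightest tag control. Another was above it on all 12 arrays and alike in both genotypes, at 61.4 to 97.4 and 56.2 to 96.4, and the last was below it throughout. The sources used here do not say where these probe sets lie relative to the altered part of Socs2. Median intensity was 43.5 to 52.3. Pearson's r across probe sets was 0.985 to 0.995 for the 6 pairs of arrays of 1 group and 0.951 to 0.995 for the 60 other pairs. The 11 hepatocyte markers were high on all arrays, with a summed intensity of 137364 to 138847 at 0 h and 119772 to 127653 after hepatectomy. Among them Ttr, Apoa2 and Hpd were called lower and Fga higher in each of the 4 comparisons with 0 h. Hpd changed by -0.53 to -0.86 and Fga by 0.27 to 0.48 on the log2 scale. As sums on each array, 9 cholangiocyte markers (Cftr under background) ranged from 1184 to 1467, 12 Kupffer cell and macrophage markers from 6799.9 to 10056, 10 stellate cell markers (Col1a2 under background) from 3576 to 4513 and 8 lymphocyte markers (Nkg7 under background) from 329.7 to 422. The sum over 10 sinusoidal endothelial markers was 3917 to 4257 at 0 h, 3462 to 3772 at 24 h and 2726 to 3204 at 36 h. Of the Kupffer cell and macrophage markers 2 were called higher and 2 lower in each of the 4 comparisons with 0 h. Marco rose by 2.82 to 3.19 and Cd68 by 0.55 to 0.98 on the log2 scale, while Clec4f changed by -0.66 to -0.90 and Csf1r by -0.35 to -0.58. Of the stellate cell markers Acta2 was called higher in all 4, by 0.79 to 1.17, and 1 to 4 were called lower. Log2 of the 3′ over the 5′ actin control probe sets, a sign of RNA quality, was 0.508 to 0.548 on the 4 arrays at 0 h and 0.294 to 0.461 on the 8 after hepatectomy. The same measure for the Gapdh control overlapped, at -0.100 to 0.071 at 0 h and -0.080 to 0.043 after hepatectomy. The part of these shifts in the members' changes was not tested. The 18 hybridization controls, added at the array step, fell with time, from a mean log2 of 9.81 to 9.93 at 0 h to 9.27 to 9.85 at 24 h and 8.92 to 9.15 at 36 h.

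After hepatectomy most of the transporters fell, uptake carriers and canalicular pumps alike, and at 36 h fewer of them were called below their starting level in wildtype liver. At 24 h 7 of the 10 members were lower than at 0 h in wildtype liver, 3 of the 4 uptake carriers and 4 of the 5 canalicular pumps, where 15.6% of all genes were called lower. In Socs2-null liver 7 of 10 were lower at 24 h as well, again 3 uptake carriers and 4 canalicular pumps, against 13.5% of all genes. At 36 h 2 of 10 were lower than at 0 h in wildtype liver (9.50% of all genes) and 6 of 10 in Socs2-null liver (10.1% of all genes). No member was called higher than at 0 h, where 10.2% and 10.8% of all genes were at 24 h and 5.69% and 9.84% at 36 h in wildtype and Socs2-null liver. Called means a Benjamini-Hochberg adjusted p from limma under 0.05 over all 17097 genes. Changes are log2 changes ± standard error on intensity + 16, and p-values measure the spread between pools only. Fewer hepatocytes in the tissue and less RNA per hepatocyte cannot be told apart in these bulk samples.

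Over the 10 members the median log2 change at 24 h was -1.20 in wildtype and -1.07 in Socs2-null liver, where the median over all genes was -0.080 and -0.039. At 36 h it was -0.40 in wildtype and -0.87 in Socs2-null liver, against -0.065 and -0.026 over all genes. Both times of a genotype were set against the same 0 h arrays, so the comparisons share those arrays. Both arrays after hepatectomy lay below both 0 h arrays for 9 members in wildtype (43.8% of all genes) and 9 in Socs2-null liver (34.5%) at 24 h, and for 6 (40.3%) and 9 (33.6%) at 36 h. The wildtype count at 24 h was 3 without either wildtype 0 h replicate 1 or replicate 2 and 4 without wildtype 24 h replicate 1, where calls over all genes, in either direction, went from 4417 to 1476, 1359 and 2082. In Socs2-null liver the 24 h count was 4 without Socs2-null 0 h replicate 1, 0 h replicate 2 or 24 h replicate 2, and calls over all genes went from 4146 to 2236, 2014 and 2883. The Socs2-null count at 36 h was 3 without 0 h replicate 1 and 2 without either 0 h replicate 2 or 36 h replicate 1, beside 1727, 1563 and 2133 calls over all genes in place of 3415. It was also 3 with the hybridization controls as a covariate, an alternative chosen after the data were seen, beside 1418 over all genes. That covariate moved the wildtype changes at 36 h downward for every member but Slco1a1. Slc10a1 went from -0.38 to -0.97, Slco1b2 from -0.42 to -1.28, Abcg5 from -0.46 to -1.35 and Abcc2 from 0.032 to -0.54, none of them called. Slco1a4 stayed above 0, at 0.034. How much smaller the wildtype fall was at 36 h than at 24 h thus depends on this setting. Socs2-null changes at 36 h moved downward too for every member but Slco1a1, such as Slc10a1 from -0.91 to -1.48 and Abcb11 from -1.37 to -3.19. The differences between genotypes at 36 h moved little, for Slc10a1 from -0.47 to -0.48 and for Abcb11 from -0.75 to -0.80, not called with either setting. From here, a number in brackets after a left-out array or another setting is the adjusted p obtained with it, and a range spans all 22 alternatives for that result.

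**Figure D1:**
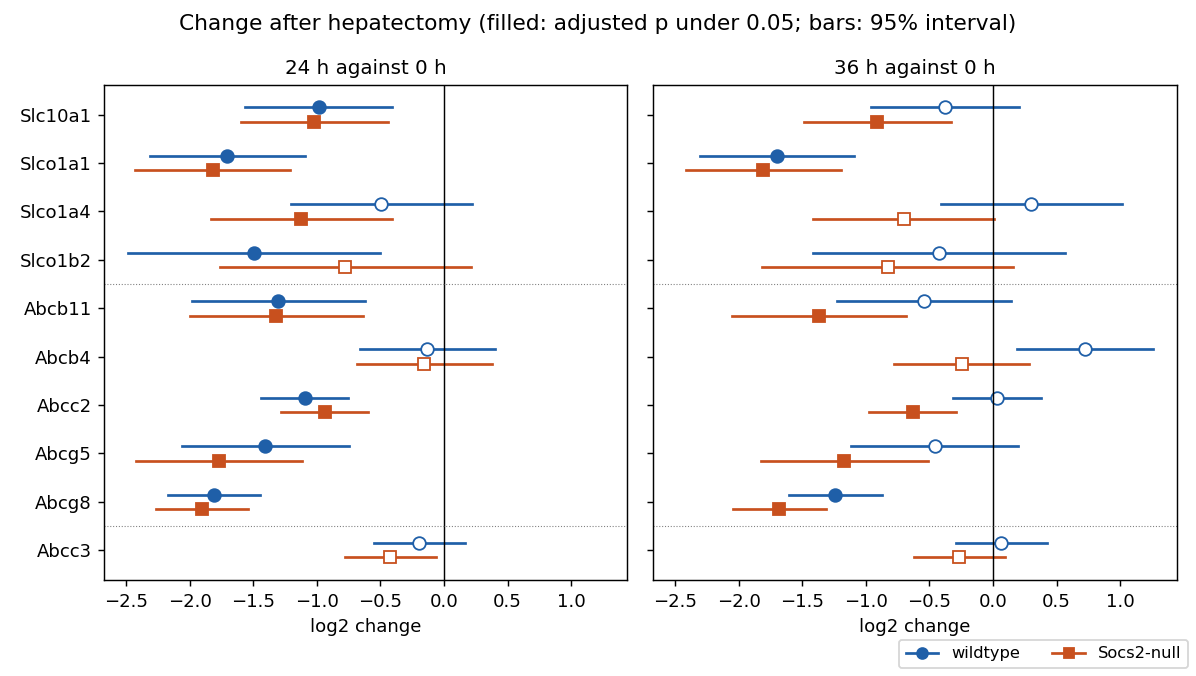
Log2 change at 24 h (left) and 36 h (right) against 0 h for each of the 10 transporters, wildtype as circles and Socs2-null as squares. Bars are 95% intervals, filled symbols have an adjusted p under 0.05, and dotted lines part uptake, canalicular and basolateral genes; at 24 h 7 symbols are filled in each genotype, and at 36 h 2 in wildtype and 6 in Socs2-null liver.

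The stretches before the starts of members that fell are shown because several are known targets of nuclear receptors and because Abcg5 and Abcg8 share one such stretch. They are RefSeq sequences of build GRCm38.p6, 5′ to 3′ in the direction of the named gene, and RefSeq windows were matched for 9 of the 10 members. Capitals mark a match to AGGNCA, then 1 base of any kind, then TGACCT in Abcb11 and Slco1b2, to TTCNNNGAA in Slc10a1 and to AGATAA, which reads TTATCT on the strand shown, in the stretch between Abcg5 and Abcg8.
Abcb11, chr2:69342617-69342866, minus strand: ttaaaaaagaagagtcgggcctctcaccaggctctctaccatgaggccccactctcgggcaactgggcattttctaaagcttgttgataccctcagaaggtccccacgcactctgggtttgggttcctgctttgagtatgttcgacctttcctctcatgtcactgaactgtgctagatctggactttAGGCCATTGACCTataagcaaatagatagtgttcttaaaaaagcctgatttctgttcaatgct
Slco1b2, chr6:141629268-141629451, plus strand: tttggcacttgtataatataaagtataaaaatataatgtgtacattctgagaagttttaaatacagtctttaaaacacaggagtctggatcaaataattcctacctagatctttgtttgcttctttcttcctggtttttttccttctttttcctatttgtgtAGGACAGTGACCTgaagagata
Slc10a1, chr12:80968706-80968955, minus strand: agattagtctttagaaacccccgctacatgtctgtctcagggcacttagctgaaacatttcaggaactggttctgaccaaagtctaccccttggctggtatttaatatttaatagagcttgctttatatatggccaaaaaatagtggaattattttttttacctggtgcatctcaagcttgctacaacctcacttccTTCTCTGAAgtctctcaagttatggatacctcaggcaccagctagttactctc
Abcg5 to Abcg8, chr17:84683012-84683120, plus strand: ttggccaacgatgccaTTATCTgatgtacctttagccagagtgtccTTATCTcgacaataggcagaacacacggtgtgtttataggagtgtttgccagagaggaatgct

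Motifs were searched on both strands of the 250 bases before each start, in 32851 windows, 11 of them of members. The exact inverted repeat, AGGTCA and TGACCT parted by 1 base, which is the binding element of the bile acid receptor FXR, was found in 0.00609% of all windows and in no member window. With AGGNCA in place of AGGTCA, a pattern widened after the Abcb11 sequence had been read, 11 windows or 0.0335% matched, those of Abcb11 and Slco1b2 among them, starting 63 and 88 bases before the start. Of the Slco1b2 window only the first 184 bases are printed above, up to where the RefSeq extent of the gene begins. The printed stretch thus stops short of the start from which the 88 bases are counted. The half-site AGGTCA was in 14% of all windows and in windows of Slc10a1, Slco1a1, Slco1b2, Abcb11 and Abcc2; it overlaps the inverted repeat in Abcb11 and Slco1b2. The STAT pattern TTCNNNGAA was in 7.02% of all windows and in those of Slc10a1 and Slco1b2. The GATA pattern AGATAA was in 9.99% and in those of Abcg5 and Abcg8, whose windows overlap since 109 bases part the starts. GTTAAT was in 6.43% and in the window of Slco1b2, CCAAT in 33.8% and in windows of Slco1a4, Abcb4, Abcc2 and Abcg8, and CACGTG in 6.02% and in none of the members'. These matches describe letters in a window, not sites in use.

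**Figure D2:**
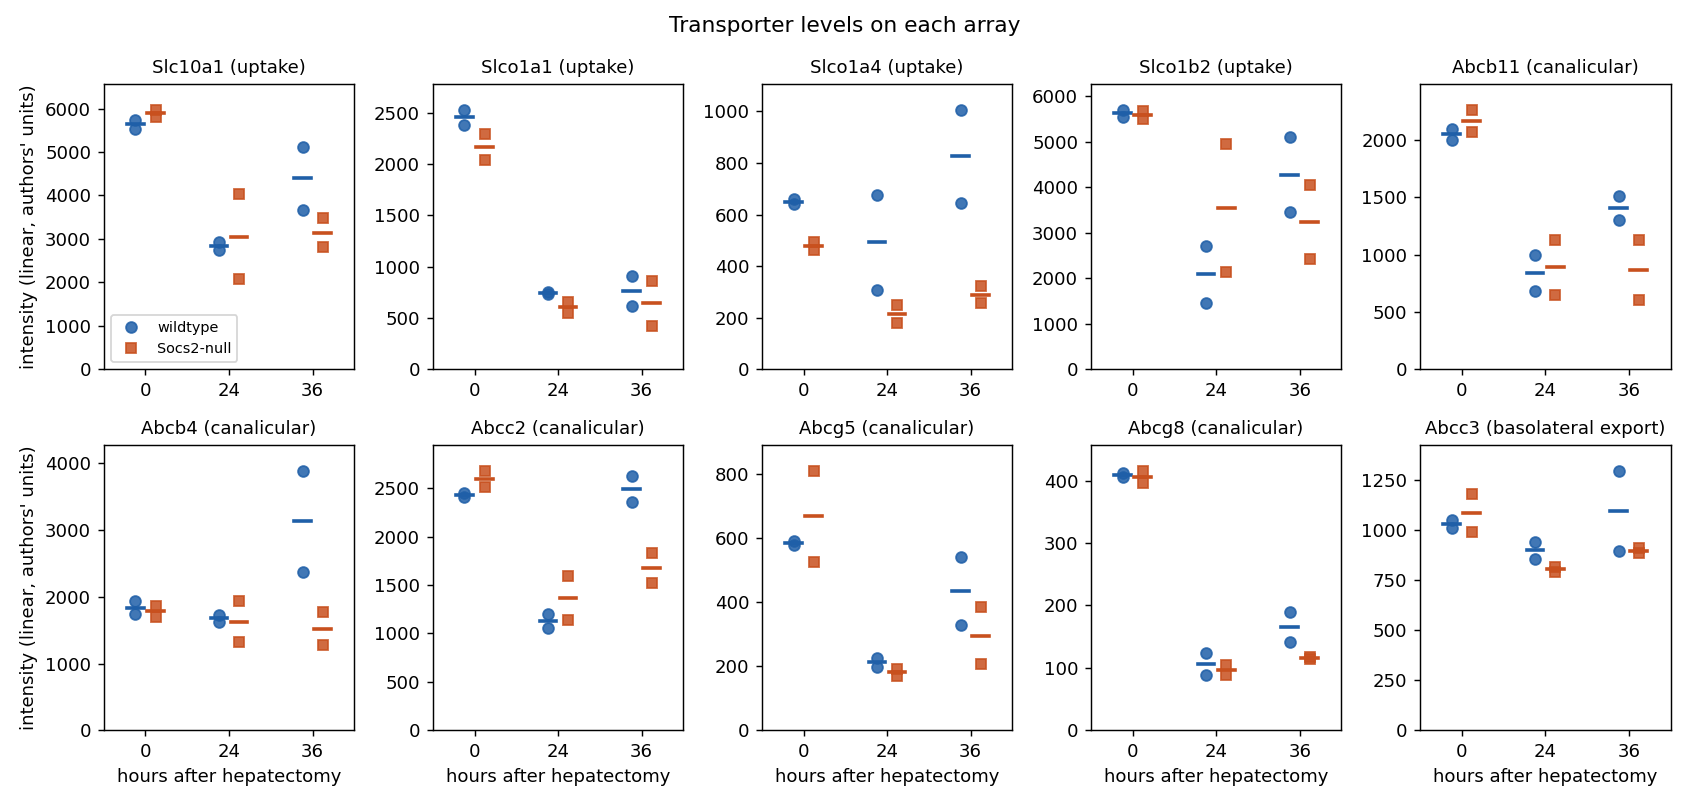
Intensity of each of the 10 transporters in the 6 groups, 1 panel per gene with a linear axis from 0. Points are arrays (2 pools per group) and lines are group means; Abcg8 is low at both times after hepatectomy in both genotypes, Abcb4 is highest in wildtype liver at 36 h, and levels should not be compared between panels.

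Among the uptake carriers, Slc10a1 encodes NTCP, the sodium-dependent carrier of conjugated bile acids. Its intensity in wildtype liver was 5740.3 and 5536 before operation, 2928 and 2755 at 24 h and 5126 and 3665 at 36 h. In Socs2-null liver it was 5977 and 5800.1 before operation, 4032 and 2074 at 24 h and 3471 and 2817 at 36 h. Every array after hepatectomy lay below the 4 arrays at 0 h. The fall at 24 h was 1.98-fold in wildtype (log2 change -0.99 ± 0.26, adjusted p = 0.0216) and 2.03-fold in Socs2-null liver (-1.02 ± 0.26, adjusted p = 0.0187). At 36 h it was -0.38 ± 0.26 (adjusted p = 0.361) in wildtype and -0.91 ± 0.26 (adjusted p = 0.0344) in Socs2-null liver. Only the latter passed the test. The second probe set of the gene was called in the same 3 comparisons when all probe sets were tested. The wildtype call at 24 h was lost without either wildtype 0 h array (0.0993 and 0.0894) or either wildtype 24 h array (0.0775 and 0.0950), over a range of 0.000132 to 0.0993. The Socs2-null call at 24 h was lost without either Socs2-null 0 h array (0.0819 and 0.0750) or Socs2-null 24 h replicate 2 (0.0611) and with only the arrays compared in the fit (0.0666), over a range of 0.000418 to 0.0819. The 36 h call in Socs2-null liver was lost without either wildtype 0 h array (0.0512 and 0.0512), either Socs2-null 0 h array (0.129 and 0.120), either wildtype 24 h array (0.0501 and 0.0503) or either Socs2-null 36 h array (0.0650 and 0.160) and with the hybridization-control covariate (0.180), over a range of 0.00168 to 0.180.

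Slco1a1, which encodes the organic anion carrier OATP1A1, fell in both genotypes and was still low at 36 h. Wildtype arrays read 2382 and 2529 before operation, 731 and 754 at 24 h and 612 and 905 at 36 h. Socs2-null arrays read 2036 and 2287 before operation, 654 and 551 at 24 h and 864 and 423 at 36 h. All 8 arrays after hepatectomy were at or below 905, and all 4 at 0 h were at or above 2036. The change at 24 h was -1.70 ± 0.28 (adjusted p = 0.00243) in wildtype and -1.82 ± 0.28 (adjusted p = 0.00143) in Socs2-null liver, 3.26-fold and 3.53-fold lower. The 36 h change from 0 h was -1.70 ± 0.28 (adjusted p = 0.00334) and -1.81 ± 0.28 (adjusted p = 0.00166). The other probe set of the gene fell in all 4 comparisons too. With the hybridization-control covariate the 36 h calls were lost, with changes about as large (-1.56 for wildtype, -1.67 for Socs2-null liver), at adjusted p = 0.261 in wildtype (range 0.000297 to 0.261) and 0.172 in Socs2-null liver (0.000195 to 0.172).

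Slco1a4 encodes OATP1A4, a related organic anion carrier whose gene lies beside Slco1a1 on chromosome 6 with 0 protein-coding genes between. Wildtype arrays read 640.1 and 661 before operation, 307 and 678 at 24 h and 1007 and 644 at 36 h. Socs2-null arrays read 464 and 492 before operation, 178 and 249 at 24 h and 257 and 321 at 36 h. At each of the 3 times both Socs2-null arrays were below both wildtype arrays. After hepatectomy Slco1a4 fell in Socs2-null liver at 24 h by 2.18-fold (log2 change -1.12 ± 0.32, adjusted p = 0.0292). In wildtype liver the 24 h change was -0.49 ± 0.32 (adjusted p = 0.281), with 1 array at 307 and the other at 678, above both arrays at 0 h. Set against 0 h, the 36 h change was 0.30 ± 0.32 (adjusted p = 0.568) in wildtype and -0.70 ± 0.32 (adjusted p = 0.155) in Socs2-null liver. The Socs2-null call at 24 h was lost without either Socs2-null 0 h array (0.0978 and 0.122) or either Socs2-null 24 h array (0.144 and 0.0504) and with the hybridization-control covariate (0.118), over a range of 0.00615 to 0.144. The gene was called lower in wildtype liver at 24 h without wildtype 24 h replicate 2 (0.0317), over a range of 0.0317 to 0.906. In Socs2-null liver it was called lower at 36 h without either wildtype 24 h array (0.0485 and 0.0485) and with only the arrays compared in the fit (0.0247), over a range of 0.0247 to 0.524.

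Slco1b2 encodes OATP1B2, the liver-specific carrier of unconjugated bile acids and many drugs. Wildtype arrays read 5709 and 5556 before operation, 2705 and 1460.2 at 24 h and 5099 and 3457 at 36 h. Socs2-null arrays read 5679 and 5505 before operation, 4963 and 2141 at 24 h and 2430.3 and 4053 at 36 h. The Socs2-null arrays at 24 h stood 1.21 apart on the log2 scale, the widest pair of any member. Slco1b2 fell in wildtype liver at 24 h by 2.82-fold (log2 change -1.49 ± 0.43, adjusted p = 0.0367). It stood at -0.78 ± 0.43 (adjusted p = 0.231) in Socs2-null liver at 24 h. Values at 36 h were -0.42 ± 0.43 (adjusted p = 0.557) and -0.83 ± 0.43 (adjusted p = 0.224). The probe sets chosen for Slco1b2 and Abcc2 carry the maker's suffix for probes shared by several transcripts. Of the 5 probe sets of Slco1b2, 1 lay under the brightest tag control on all 12 arrays. The second brightest gave -0.92 ± 0.37 in wildtype (adjusted p = 0.107) and -0.99 ± 0.37 in Socs2-null liver (adjusted p = 0.0914) at 24 h, called in neither, when all probe sets were tested. The wildtype call was lost without either wildtype 0 h array (0.132 and 0.131) or wildtype 24 h replicate 2 (0.173) and with centring on the array median (0.0561) or the hybridization-control covariate (0.0568), over a range of 0.0143 to 0.173. A Socs2-null call appeared at 24 h without Socs2-null 24 h replicate 1 (0.0479), over a range of 0.0479 to 0.814, and at 36 h with only the arrays compared in the fit (0.0481), over a range of 0.0481 to 0.626.

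On the canalicular side, Abcb11 encodes BSEP, the pump that exports bile salts into bile. Wildtype arrays read 2100.1 and 2004 before operation, 680.3 and 994 at 24 h and 1305 and 1512 at 36 h. Socs2-null liver gave 2267 and 2068 before operation, 1130.1 and 652 at 24 h and 604 and 1133 at 36 h. Every array after hepatectomy was below the 4 arrays at 0 h, and in wildtype liver both arrays at 36 h were above both at 24 h. Abcb11 fell by 2.47-fold at 24 h in wildtype (log2 change -1.30 ± 0.31, adjusted p = 0.0135) and by 2.49-fold in Socs2-null liver (-1.32 ± 0.31, adjusted p = 0.0124). It was 2.58-fold lower than at 0 h in Socs2-null liver at 36 h (-1.37 ± 0.31, adjusted p = 0.0119), and the wildtype value was -0.54 ± 0.31 (adjusted p = 0.267). The wildtype call at 24 h was lost without either wildtype 0 h array (0.0748 and 0.0685) or wildtype 24 h replicate 1 (0.0926), over a range of 6.66e-05 to 0.0926. In Socs2-null liver the 24 h call was lost without either Socs2-null 0 h array (0.0686 and 0.0518) or Socs2-null 24 h replicate 2 (0.0798), over a range of 8.97e-05 to 0.0798. There the 36 h call was lost without either Socs2-null 0 h array (0.0685 and 0.0528) or Socs2-null 36 h replicate 1 (0.0712), over a range of 0.000721 to 0.0712. In wildtype liver at 36 h the gene was called lower with only the arrays compared in the fit (0.0246) or the hybridization-control covariate (0.00510), over a range of 0.00510 to 0.502. That covariate moved the fitted changes of Abcb11 to -2.43 in wildtype at 36 h and to -2.18 and -3.19 in Socs2-null liver at 24 and 36 h.

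Abcb4 encodes MDR2, the floppase that moves phosphatidylcholine into bile. Its wildtype intensities were 1938 and 1736 before operation, 1617 and 1734 at 24 h and 2374 and 3891 at 36 h. Its Socs2-null intensities were 1705 and 1863 before operation, 1933 and 1322 at 24 h and 1272 and 1769.9 at 36 h. Both wildtype arrays at 36 h were above every other array, and one of them read 3891. None of its changes passed the test. The 24 h change was -0.13 ± 0.24 (adjusted p = 0.726) in wildtype and -0.16 ± 0.24 (adjusted p = 0.678) in Socs2-null liver. At 36 h it was 0.72 ± 0.24 (adjusted p = 0.0686) in wildtype, 1.65-fold higher than at 0 h, and -0.25 ± 0.24 (adjusted p = 0.520) in Socs2-null liver. The wildtype value at 36 h passed without either Socs2-null 24 h array (0.0447 and 0.0446) or wildtype 36 h replicate 1 (0.0165), over a range of 0.0165 to 0.612. With the hybridization-control covariate its direction turned, to -0.44 (0.612), and the Socs2-null value at 36 h was -1.37 (0.0618).

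Abcc2 encodes MRP2, the canalicular exporter of glutathione and glucuronide conjugates, including conjugated bilirubin. In wildtype liver it read 2409 and 2449 before operation, 1202 and 1059 at 24 h and 2353 and 2623 at 36 h. In Socs2-null liver it read 2513 and 2680.5 before operation, 1592 and 1137 at 24 h and 1523 and 1830.1 at 36 h. Of the wildtype arrays at 36 h one was just below and one above both arrays at 0 h, whereas both Socs2-null arrays at 36 h were below both of theirs at 0 h. Abcc2 fell by 2.14-fold at 24 h in wildtype (log2 change -1.10 ± 0.16, adjusted p = 0.00128) and by 1.92-fold in Socs2-null liver (-0.94 ± 0.16, adjusted p = 0.00195), and no alternative tried ended either call. At 36 h the change from 0 h was 0.032 ± 0.16 (adjusted p = 0.913) in wildtype and -0.63 ± 0.16 (adjusted p = 0.0164) in Socs2-null liver, where it passed. The Socs2-null call at 36 h was lost without either Socs2-null 0 h array (0.0646 and 0.108) or Socs2-null 36 h replicate 1 (0.106), over a range of 0.00400 to 0.108. Between 24 and 36 h Abcc2 rose 2.19-fold in wildtype liver (log2 change 1.13 ± 0.16, adjusted p = 0.0262). It was the 1 member called higher in that comparison, where 0.216% of all genes were; 8 members and 2546 of all genes had an unadjusted p under 0.05. All 10 member means were higher, but that of Slco1a1 (0.0043) turned under centring, averaging of probe sets and 2 left-out arrays, that of Abcc3 without wildtype 36 h replicate 2, and those of Abcb11 and Abcb4 with the hybridization-control covariate. That call was lost without either wildtype 0 h array (0.0705 and 0.0707), either Socs2-null 0 h array (0.0567 and 0.0566), wildtype 24 h replicate 2 (0.149) or wildtype 36 h replicate 2 (0.0782) and with only the arrays compared in the fit (0.0517) or the hybridization-control covariate (0.371), over a range of 0.00639 to 0.371. In Socs2-null liver the change between 24 and 36 h was 0.31 ± 0.16 (adjusted p = 0.722); limma called no member there and 0.00585% of all genes, and no member but 1228 of all genes had an unadjusted p under 0.05.

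Abcg5 and Abcg8 encode the sterolin subunits of the heterodimer that exports cholesterol and plant sterols into bile, and their genes are neighbours on chromosome 17. Abcg5 read 579 and 591 before operation, 197 and 226 at 24 h and 328 and 539.5 at 36 h in wildtype liver. It read 526 and 810.5 before operation, 190.2 and 171 at 24 h and 205 and 384 at 36 h in Socs2-null liver. Abcg5 was lower at 24 h than at 0 h on every array of both genotypes. The fall was 2.65-fold in wildtype (log2 change -1.40 ± 0.30, adjusted p = 0.00813) and 3.41-fold in Socs2-null liver (-1.77 ± 0.30, adjusted p = 0.00235). At 36 h it stood at -0.46 ± 0.30 (adjusted p = 0.326) in wildtype and had fallen by 2.25-fold in Socs2-null liver (-1.17 ± 0.30, adjusted p = 0.0197). The wildtype call at 24 h was lost without either wildtype 0 h array (0.0503 and 0.0555) or wildtype 24 h replicate 1 (0.0539), over a range of 0.000178 to 0.0555. The Socs2-null call at 36 h was lost without Socs2-null 0 h replicate 2 (0.144) or Socs2-null 36 h replicate 1 (0.126) and with the hybridization-control covariate (0.0854, at a change of -2.03), over a range of 0.00707 to 0.144.

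Abcg8, the partner subunit, gave 412 and 406 before operation, 88.6 and 124 at 24 h and 142 and 189.6 at 36 h in wildtype liver. Socs2-null liver gave 396 and 416 before operation, 105 and 89.1 at 24 h and 114 and 118 at 36 h. The 8 arrays after hepatectomy read 88.6 to 189.6 and the 4 at 0 h 396 to 416. Abcg8 fell in all 4 comparisons with 0 h, and no alternative tried ended any of these calls. It was 3.51-fold lower at 24 h in wildtype (log2 change -1.81 ± 0.17, adjusted p = 0.000116) and 3.74-fold lower in Socs2-null liver (-1.90 ± 0.17, adjusted p = 5.37e-05). At 36 h it was 2.36-fold lower in wildtype (-1.24 ± 0.17, adjusted p = 0.00102) and 3.20-fold lower in Socs2-null liver (-1.68 ± 0.17, adjusted p = 0.000114). With the hybridization-control covariate these 36 h changes were -1.93 and -2.34. Folds here and elsewhere are on intensity + 16, which understates the change of dim genes.

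Abcc3 encodes MRP3, which exports bile acid and bilirubin conjugates back into blood. Wildtype liver gave 1051 and 1013 before operation, 857 and 944 at 24 h and 898 and 1299 at 36 h. Socs2-null liver gave 994 and 1182 before operation, 793 and 818 at 24 h and 909.6 and 888 at 36 h. No change of Abcc3 passed the test, and its 6 group means spanned 0.422 on the log2 scale, the least of the 10 members. The 24 h values were -0.20 ± 0.16 (adjusted p = 0.401) in wildtype and -0.42 ± 0.16 (adjusted p = 0.0813) in Socs2-null liver, and the 36 h values 0.065 ± 0.16 (adjusted p = 0.822) and -0.27 ± 0.16 (adjusted p = 0.286). The Socs2-null change at 24 h passed without either wildtype 36 h array (0.0283 and 0.0287) and with quantile normalization (0.0447), over a range of 0.0283 to 0.362.

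Uptake and canalicular export were then set side by side. On each array the log2 changes from the wildtype 0 h mean were averaged over the 4 uptake genes and, separately, over the 5 canalicular genes; this is a description with no test, mean ± SD over 2 arrays. At 24 h both sides were lower, with uptake at -1.17 ± 0.031 and canalicular export at -1.15 ± 0.15 in wildtype liver. Socs2-null liver at 24 h had -1.33 ± 0.35 for uptake and -1.16 ± 0.30 for canalicular export. At 36 h wildtype uptake stood at -0.55 ± 0.20 and canalicular export at -0.30 ± 0.30. The Socs2-null means at 36 h were -1.20 ± 0.046 and -0.96 ± 0.36. In unoperated Socs2-null liver they were -0.14 ± 0.028 and 0.055 ± 0.11.

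Uptake minus canalicular export was -0.020 ± 0.12 at 24 h and -0.25 ± 0.50 at 36 h in wildtype liver. The wildtype difference at 24 h was smaller than its SD. In Socs2-null liver it was -0.20 ± 0.080, -0.16 ± 0.042 and -0.24 ± 0.40 at 0, 24 and 36 h. These values are measured from wildtype 0 h, so the later ones contain the gap already present in unoperated Socs2-null liver. At 36 h the arrays of a group disagreed, with 0.10 and -0.61 in wildtype and 0.046 and -0.52 in Socs2-null liver. The gap between the sides there was smaller than its SD in both genotypes. The uptake mean at 36 h of each Socs2-null array (-1.17 and -1.24) was below that of each wildtype array (-0.41 and -0.69). Canalicular means behaved likewise, with -1.22 and -0.71 in Socs2-null liver against -0.51 and -0.082 in wildtype.

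**Figure D3:**
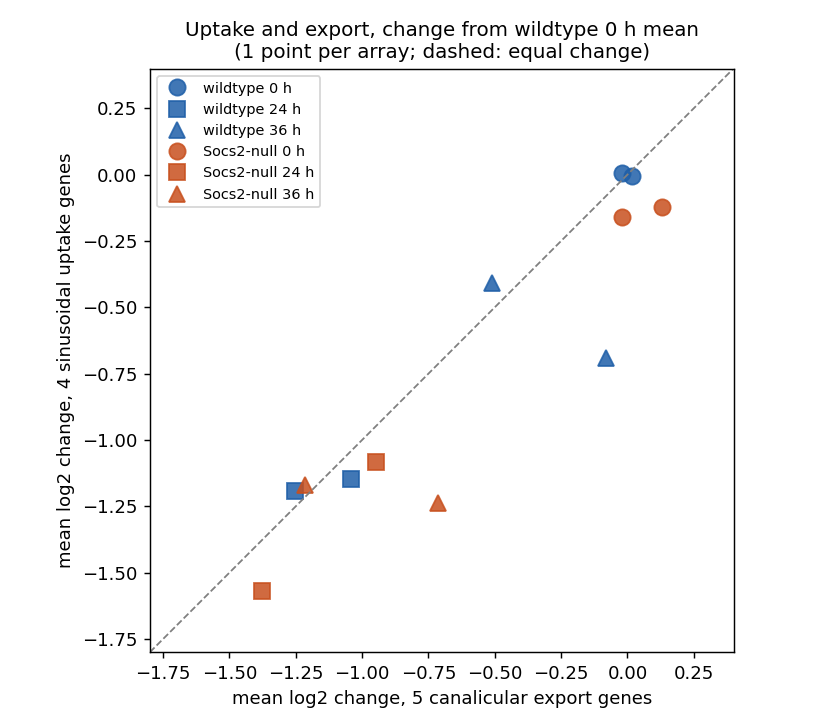
Mean log2 change from the wildtype 0 h mean over the 4 uptake genes (vertical) against that over the 5 canalicular genes (horizontal), 1 point per array, with genotype by colour, time by shape and a dashed line of equal change. The 4 arrays at 24 h lie between -1.08 and -1.57 for uptake and -0.95 and -1.38 for canalicular export, and at 36 h both wildtype arrays lie above both Socs2-null arrays for each side.

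Loss of Socs2 was compared with wildtype at each time. At 36 h all 10 member means were lower in Socs2-null liver, with a median of -0.51 against -0.0081 over all genes, but none passed the test, and 0.0234% of all genes did. Slco1a4 stood 2.71-fold lower (log2 difference -1.44 ± 0.32, adjusted p = 0.345, 95% interval -2.15 to -0.73) and Abcb4 2.02-fold lower (-1.01 ± 0.24, adjusted p = 0.391, 95% interval -1.54 to -0.48). Abcb11 was at -0.75 ± 0.31 (adjusted p = 0.743), Abcc2 at -0.57 ± 0.16 (adjusted p = 0.491) and Abcg5 at -0.56 ± 0.30 (adjusted p = 0.804). The remaining 5 ranged from -0.26 (Abcc3) to -0.47 (Slc10a1). Both Socs2-null arrays lay below both wildtype arrays for 6 members, Slc10a1, Slco1a4, Abcb11, Abcb4, Abcc2 and Abcg8, where 17.6% of all genes did. By limma's unadjusted p under 0.05 there were 5 members (Slco1a4, Abcb11, Abcb4, Abcc2 and Abcg8) and 1101 of all genes. Socs2 itself, 9.17-, 4.70- and 5.50-fold lower at 0, 24 and 36 h, was not called by limma at any single time either. Its adjusted p was 0.213, 0.404 and 0.236, and its difference averaged over the times was called (adjusted p = 0.0154). The averaged call was lost with a pseudocount of 64 (0.0734) and without Socs2-null 0 h replicate 2, 24 h replicate 2 or either 36 h array (differences of -2.64, -2.65, -2.66 and -2.60). A call of Socs2 appeared at 0 h with the replicate block (0.0305) or without either wildtype 24 h array. At 36 h it appeared with only the arrays compared (0.0147) or without wildtype 24 h replicate 2. A missing call between the genotypes therefore does not show equal levels. None of the 22 alternatives called a member at 36 h. The count of 10 became 9 without Socs2-null 36 h replicate 2, where Slco1a1 was at 0.21, and without wildtype 36 h replicate 2, where Abcc3 was at 0.0019. At this time the hepatocyte marker sums were 120592 and 122873 in wildtype and 120321 and 124606 in Socs2-null liver, and the hybridization controls averaged 9.13 and 8.98 and 9.15 and 8.92.

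**Figure D4:**
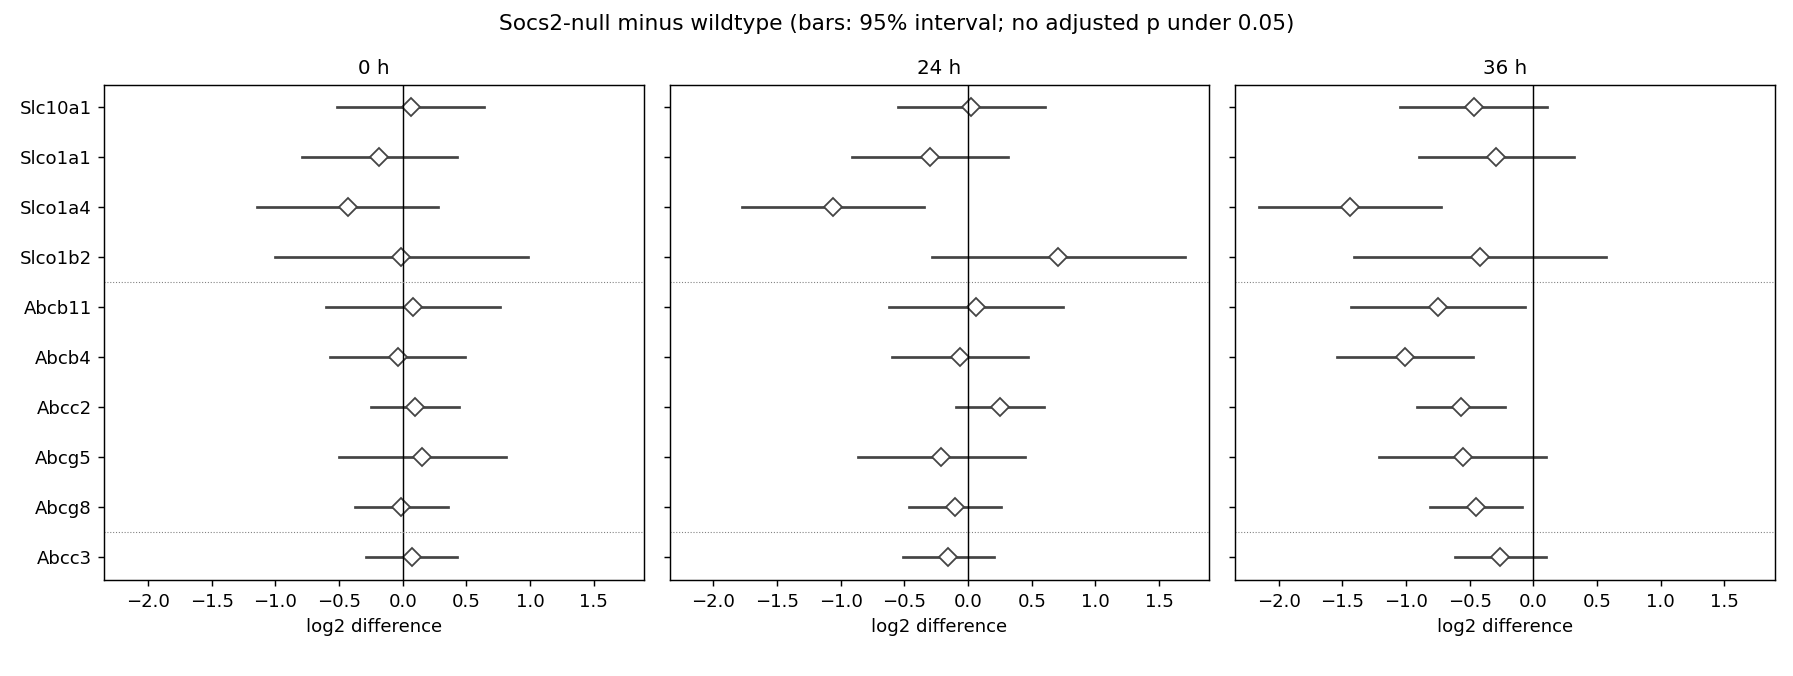
Socs2-null minus wildtype log2 difference of each transporter at 0, 24 and 36 h, with 95% intervals. No difference has an adjusted p under 0.05; at 36 h all 10 points are below 0, with Slco1a4 at -1.44 and Abcb4 at -1.01 furthest.

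At 0 h the members' median difference was 0.026 (all genes -0.037), and at 24 h it was -0.085 (all genes -0.017). No member was called by limma at either time, where 0% and 0.0117% of all genes were; unadjusted p was under 0.05 for 0 members and 847 of all genes at 0 h and for 1 member (Slco1a4) and 1408 of all genes at 24 h. At 0 h the arrays of Slco1a1 and Slco1a4 lay apart on the lower side (27.9% of all genes) and those of Slc10a1 and Abcc2 on the higher side (13.9%). At 24 h those of Slco1a1, Slco1a4, Abcg5 and Abcc3 lay apart on the lower side (19.1%). Slco1a4 was the 1 member whose Socs2-null arrays lay below the wildtype arrays at all 3 times, as did 1.77% of all genes. Its difference was -0.43 ± 0.32 (adjusted p = 1.000) at 0 h and -1.06 ± 0.32 (adjusted p = 0.461) at 24 h. Averaged over the 3 times it was -0.98 ± 0.19 (adjusted p = 0.152), not called. Without wildtype 24 h replicate 1, the array at 307, the averaged difference was -1.16 with an adjusted p = 0.0288, and over the 21 alternatives p ran from 0.0288 to 0.531. Averaged over times limma called 0 of the 10 members and 0.0292% of all genes, with 2 members (Slco1a4 and Abcb4) and 1750 of all genes at an unadjusted p under 0.05.

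Whether the genotypes responded differently was tested directly, as the Socs2-null change minus the wildtype change. No member was called for either time, against 0% of all genes at 24 h and 0.00585% at 36 h. For 36 h all 10 differences were below 0, with a median of -0.60 against 0.048 over all genes. That of Slco1a1 (-0.11) turned to 0.17 without wildtype 36 h replicate 2 and to 0.39 without Socs2-null 36 h replicate 2. The most negative were Slco1a4 at -1.01 ± 0.45, Abcb4 at -0.97 ± 0.34, Abcb11 at -0.83 ± 0.43, Abcg5 at -0.71 ± 0.42 and Abcc2 at -0.66 ± 0.22, each with an adjusted p of 0.999. By limma's unadjusted p under 0.05 there were 2 members (Abcb4 and Abcc2) and 640 of all genes at 36 h, and 0 members and 646 of all genes at 24 h. For 24 h 8 of 10 were below 0, with a median of -0.064 against 0.027. The larger number of calls in Socs2-null liver at 36 h is not shown to be a difference between genotypes.

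Other hepatic transporters, a list of 25 with 20 measured, were read beside the members. Called higher and lower were 2 and 4 in wildtype at 24 h, 1 and 4 in Socs2-null liver at 24 h, 2 and 3 in wildtype at 36 h and 2 and 4 in Socs2-null liver at 36 h. Of all genes, 10.2% and 15.6% were called higher and lower in wildtype at 24 h and 10.8% and 13.5% in Socs2-null liver. At 36 h the shares were 5.69% and 9.50% in wildtype and 9.84% and 10.1% in Socs2-null liver. The transporters called higher were Slc22a5 (log2 change at 24 h 1.27 ± 0.25 in wildtype and 1.09 ± 0.25 in Socs2-null liver), Abcg1 and Abcc1. The list's median at 24 h was -0.10 in wildtype and -0.087 in Socs2-null liver. Abcc6, which encodes MRP6 of the basolateral membrane, fell at 24 h with a log2 change of -1.72 ± 0.15 (adjusted p = 0.000101) in wildtype and -1.92 ± 0.15 (adjusted p = 3.44e-05) in Socs2-null liver. Slc47a1, the proton-coupled cation exporter MATE1 of the canalicular membrane, fell with a log2 change of -1.69 ± 0.22 (adjusted p = 0.000718) and -1.94 ± 0.22 (adjusted p = 0.000233). Slc22a7, the anion carrier OAT2, fell with a log2 change of -0.91 ± 0.16 (adjusted p = 0.00334) and -1.12 ± 0.16 (adjusted p = 0.000931). Npc1, the lysosomal cholesterol transporter, fell with a log2 change of -0.84 ± 0.12 (adjusted p = 0.00144) and -0.97 ± 0.12 (adjusted p = 0.000539). These 8 calls were kept in every alternative tried. The wildtype count at 36 h was 3 without wildtype 0 h replicate 1, 0 h replicate 2 or 36 h replicate 2, and 2 with the hybridization-control covariate.

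Of 17 genes of bile acid synthesis, all measured, 1 was called higher and 7 lower in wildtype at 24 h, and 0 and 7 in Socs2-null liver. Counts at 36 h were 1 and 5 in wildtype and 0 and 8 in Socs2-null liver. Of all genes, 10.2% and 15.6% were called higher and lower in wildtype at 24 h and 10.8% and 13.5% in Socs2-null liver. At 36 h the shares were 5.69% and 9.50% in wildtype and 9.84% and 10.1% in Socs2-null liver. Akr1d1, the steroid reductase of the pathway, fell at 24 h with a log2 change of -1.90 ± 0.24 (adjusted p = 0.000718) in wildtype and -2.53 ± 0.24 (adjusted p = 9.58e-05) in Socs2-null liver. Cyp27a1, the sterol side-chain hydroxylase of the acidic pathway, fell with -0.84 ± 0.13 (adjusted p = 0.00199) and -0.82 ± 0.13 (adjusted p = 0.00181). At 24 h the list's median was -0.40 in wildtype and -0.46 in Socs2-null liver. Calls of Akr1d1 and Cyp27a1 at 24 h were kept in every alternative. Cyp2c70, which makes muricholic acids in mice, fell at 24 h with -0.64 ± 0.16 (adjusted p = 0.0132) and -0.55 ± 0.16 (adjusted p = 0.0248). Its calls were lost in 2 of 22 alternatives in wildtype (range 0.00702 to 0.118) and in 5 in Socs2-null liver (0.0128 to 0.322), among them the loss of any 1 of the 4 arrays compared. Slc27a5, a bile acid CoA ligase, fell with -0.59 ± 0.14 (adjusted p = 0.0115) and -0.70 ± 0.14 (adjusted p = 0.00490). These calls were lost in 3 (0.000806 to 0.0811) and 1 (0.000727 to 0.0767) of the alternatives, the first 3 without either wildtype 0 h array or wildtype 24 h replicate 1. In both directions together, the wildtype count at 24 h was 2 without wildtype 0 h replicate 1, 3 without 0 h replicate 2 or either 24 h array and 5 without either Socs2-null 0 h array. In Socs2-null liver the count at 24 h was 4, 3 and 4 without 0 h replicate 1, 0 h replicate 2 and 24 h replicate 2. The wildtype count at 36 h was 3 without either 0 h array and the Socs2-null count 5 without 0 h replicate 2.

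Among 18 measured of 20 regulators of these genes, 0 were called higher and 6 lower in wildtype at 24 h, and 1 and 2 in Socs2-null liver. Counts at 36 h were 2 and 3 in wildtype and 4 and 2 in Socs2-null liver. Of all genes, 10.2% and 15.6% were called higher and lower in wildtype at 24 h and 10.8% and 13.5% in Socs2-null liver. At 36 h the shares were 5.69% and 9.50% in wildtype and 9.84% and 10.1% in Socs2-null liver. Cebpa, a hepatocyte transcription factor, fell at 24 h with -1.60 ± 0.21 (adjusted p = 0.000909) in wildtype and -1.61 ± 0.21 (adjusted p = 0.000640) in Socs2-null liver on the log2 scale. Ppara, the fatty acid receptor, fell with -0.91 ± 0.15 (adjusted p = 0.00204) and -1.05 ± 0.15 (adjusted p = 0.000809). Nr1i2, the xenobiotic receptor PXR, went the other way and was called higher at 36 h, with 0.97 ± 0.14 (adjusted p = 0.00127) in wildtype and 0.46 ± 0.14 (adjusted p = 0.0351) in Socs2-null liver. At 24 h it was at 0.35 ± 0.14 (adjusted p = 0.0773) and 0.18 ± 0.14 (adjusted p = 0.362). The wildtype call at 36 h was lost with the hybridization-control covariate (0.292, range 0.00106 to 0.292) and the Socs2-null call in 9 of 22 alternatives (0.0222 to 0.875), each array compared among those left out. Nr5a2, the receptor LRH-1, fell in wildtype at 24 h with -1.05 ± 0.18 (adjusted p = 0.00270) and stood at -0.12 ± 0.18 (adjusted p = 0.674) in Socs2-null liver, where the test of the difference gave an adjusted p of 1.000. Nr1h4, the bile acid receptor FXR, was chosen after its values were seen. At 24 h it was at -0.55 ± 0.18 (adjusted p = 0.0402) in wildtype and -0.0096 ± 0.18 (adjusted p = 0.974) in Socs2-null liver. It was also called lower at 36 h in wildtype (-0.61 ± 0.18, adjusted p = 0.0378) and not in Socs2-null liver. The test of the difference between genotypes called no gene of this list at either time. The wildtype call of Nr1h4 at 24 h was lost without either wildtype 0 h array (changes of -0.49 and -0.61) or wildtype 24 h replicate 1 (-0.38). It was also lost with centring on the array median (0.113), the replicate block (0.0552) or the hybridization-control covariate (0.0676). With these settings the 36 h call was lost as well (0.0753, 0.0544 and 0.510). In both directions together, the list's wildtype count was 3 at 24 h without wildtype 0 h replicate 1. At 36 h the wildtype count was 2, 1 and 2 without 0 h replicate 1, 0 h replicate 2 and 36 h replicate 2, and the Socs2-null count 2, 3 and 2 without the same 3 arrays of that genotype. No gene of the 3 lists was called between the genotypes at any time or averaged over the times. Slc22a7, averaged over the times, stood at -0.60 ± 0.093 (adjusted p = 0.0847) and was called without Socs2-null 24 h replicate 1 (0.0328) and with the hybridization-control covariate (0.0407).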

How the data were processed

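Per the labels' protocols, liver RNA pooled from 3 animals was made into biotin-labelled cRNA, from 10 micrograms of total RNA for each of the 12 arrays. The values, as deposited, are processed intensities without a log transform, for 45141 probe sets. The sources used here do not say how the authors corrected background, summarized probes or normalized. The number of arrays limits precision.

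Of these, 28898 carry a single gene symbol in the platform annotation. Each of 17097 genes was read from its brightest such probe set, as log2(intensity + 16), with neither a filter nor further scaling. limma 3.58.1 fitted 6 group means to the 12 arrays, which leaves 6 residual degrees of freedom. Its functions were lmFit, contrasts.fit and eBayes, the last with robust and trend set (R 4.3.3, statmod 1.5.0). The 12 comparisons were two-sided, with Benjamini-Hochberg adjusted p over all genes under 0.05 counted as a call. The fit was tested on simulated data for wildtype at 24 h against 0 h. Of 50 genes changed 1.5-, 2-, 3- or 4-fold, 42%, 84%, 96% and 100% were called. These rates are for that comparison only and do not cover those between genotypes. Background is, on each array, the highest value among its 17 tag control probe sets.

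Members and lists were chosen with earlier results of these data known. Genes named are all 10 members, Socs2, 4 genes of each of the 3 related lists by smallest p, Nr1h4, which was chosen after its values were seen, marker genes among the 4 of smallest p in their list (some left out for length), and the 3 genes nearest each member in pattern. Slc22a5, Abcg1 and Abcc1 are named as the other transporters called higher. Promoter windows were searched and figures drawn with Python 3.11.15 and matplotlib 3.10.9. Alternatives were centring on array medians, quantile normalization, a pseudocount of 64 or 1, leaving out dim genes, averaging all probe sets, plain eBayes, a replicate block, only the arrays compared, each array left out and, added after the data were seen, a hybridization-control covariate. In the labels each pool is a biological replicate, numbered 1 or 2. Deviations of same-numbered arrays from their group means correlated at -0.50 to 0.35 over 15 pairs of groups, so the numbers were not taken to pair the pools.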

Additional observations from a re-analysis of the deposited data

How the results depend on the processing

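Counts of called members kept their direction under all alternatives tried, and no member's call reversed. Against 7 in the report, leaving out each array gave 3 to 7 for wildtype at 24 h against 0 h, and 4 to 8, also against 7, for Socs2-null at 24 h. For 36 h against 0 h it gave 2 to 3 in wildtype (2 reported) and 2 to 6 in Socs2-null liver (6 reported). For wildtype at 36 h against 24 h it gave 0 to 1 (1 reported), and for the genotype difference averaged over the times 0 to 1 (0 reported). It gave 0 in each of the other comparisons between genotypes and for Socs2-null at 36 h against 24 h. Such fits hold fewer arrays and fewer residual degrees of freedom. With the hybridization-control covariate 3 members were called in Socs2-null liver at 36 h against 0 h and 0 in wildtype at 36 h against 24 h; these controls fell with time, so the covariate overlaps with it. Only the arrays compared gave 0 for wildtype at 36 h against 24 h, where calls over all genes went from 41 to 13. Against 0 h this setting gave 8 for Socs2-null at 36 h, 3 for wildtype at 36 h and 6 for Socs2-null at 24 h. Calls over all genes there went from 3415 to 2826, from 2597 to 2640 and from 4146 to 2440. No paired design is given by the labels, and with the replicate block the member counts were 7, 2 and 1 in wildtype (24 h and 36 h against 0 h, 36 h against 24 h) and 7, 6 and 0 in Socs2-null liver, as without it. Centring on array medians added 0.12 to every wildtype log2 change at 24 h. That covariate also turned Abcb4 in wildtype at 36 h, not called, from 0.72 to -0.44. The number of pools limits what was called: at the spread of Slco1b2 a 2.82-fold change from 0 h passed and changes from 0 h of 1.71-fold and 1.78-fold did not. Its 2.10-fold rise from 24 to 36 h in wildtype did not pass either. That comparison had 41 calls over all genes and that of the 2.82-fold change 4417, so the cut-off on unadjusted p was not the same.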

Other observations

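For each member whose 6 group means spanned at least 1 on the log2 scale, the genes nearest in pattern were found by the root mean square difference of the 6 group means, each gene centred on its own mean, among genes brighter than the median gene. These are descriptions over 6 groups that share arrays. Slc10a1 lay nearest Nr2f2 (0.045), Ptms (0.049) and Ppara (0.049). Slco1a1 lay nearest Slc47a1 (0.043), Dpys (0.060) and Tcea3 (0.11), and Abcg8 nearest Amdhd1 (0.061), Ank3 (0.083) and Klkb1 (0.098). Slco1b2 lay nearest Kif1b (0.061), Gys2 (0.078) and Whamm (0.098). Abcb11 lay nearest Polg2 (0.072), Acsm3 (0.086) and Slc2a9 (0.090). Abcc2 lay nearest Nadk2 (0.10), Pcmtd1 (0.13) and Cmtm6 (0.13), and Abcg5 nearest Slc7a2 (0.16), Gas2 (0.16) and Slc2a9 (0.17). Abcb4 lay nearest Trp53inp2 (0.12), Wipf3 (0.13) and Col6a3 (0.14). Slco1a4 had no gene as near, with Synj1 at 0.26, Lpin2 at 0.28 and Nr0b2 at 0.30. Among the members themselves Slc10a1 and Abcb11 were nearest each other (0.17), as were Slco1a1 and Abcg8 (0.19), and the nearest member to Slco1a4 was Abcb4 (0.43).

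The gap between the 2 pools of a group varied with the member and the group. In Socs2-null liver at 24 h the widest gap was that of Slco1b2 (1.21 on the log2 scale). In wildtype liver at 24 h the widest gap, over 1, was that of Slco1a4. It was 0.71 for Abcb4 in wildtype at 36 h, 1.00 for Slco1a1 in Socs2-null liver at 36 h and 0.61 for Abcg5 in Socs2-null liver at 0 h. In unoperated wildtype liver no member's gap was above 0.16 (Abcb4).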
